A study of Mus musculus with 5 samples.

Results

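Peaks inside Litaf, Ank1 and Cdk5rap2 were described in chromatin immunoprecipitation and sequencing data of mouse bone marrow-derived dendritic cells. They were taken as every row of the deposited peak lists that names 1 of these genes as the 5' or 3' neighbour at a distance of 0. The rule found 9 peaks of 2548 in all, which is 1 peak for each gene in each of 3 lists. The genes had been selected on their peak shape scores in these lists and on holding a single peak, so scores, ranks and the number of peaks per gene are descriptions and were not tested.

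The cells came from C57BL/6J mice and were either wild-type (WT) or deficient in Egr1 (KO), and the labels say neither how Egr1 was deleted nor how many animals were used. Marrow was cultured with 10 ng/ml GM-CSF, a growth factor that also yields macrophage-like cells, and collected on day 6. All cells, WT and KO alike, were then given 100 ng/ml lipopolysaccharide (LPS, a bacterial membrane component sensed by Toll-like receptor 4) with 20 mM L-lactic acid for 24 h, so the groups hold no untreated cells. The lists are acetylated lysine 27 of histone H3 (H3K27ac) in WT cells with 857 peaks, H3K27ac in KO cells with 844, and the transcription factor EGR1 in WT cells with 847. Input DNA of each genotype was not analysed here.

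Each list comes from 1 library, so no difference between lists has a replicate check. No read counts are given and depth is unknown. No list has a peak within 50 kb of Egr1 (0 peaks in each), so the lists cannot check the genotype labels. Of 15 markers of dendritic and myeloid cells, 1 had a peak inside or within 2 kb in each list, the GM-CSF receptor gene Csf2ra. Its peak was weak, with a score of 2.26 for WT H3K27ac, 1.91 for KO H3K27ac and 2.17 for EGR1. It ranked 555, 696 and 582 in the same order, and the lowest score in each list was 1.65. No peak lay inside or within 2 kb of any of 10 erythroid, 5 macrophage or 5 neutrophil markers. Over all protein-coding genes the share was 0.679% for WT and 0.679% for KO H3K27ac, and 0.693% for EGR1, so the lists do not check the cell type either.

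The 3 genes belong to separate processes. LITAF is a small membrane protein of late endosomes and lysosomes that takes part in endosomal sorting, and its gene was named for induction by LPS in connection with TNF. Ankyrin 1, the product of Ank1, ties the spectrin skeleton of the red cell to membrane proteins such as the anion exchanger, and its loss causes hereditary spherocytosis. CDK5RAP2 sits in the pericentriolar material, where it recruits gamma-tubulin complexes that nucleate microtubules, and its human gene is mutated in primary microcephaly. H3K27ac is found at active promoters and enhancers, and EGR1 is a zinc finger factor of the immediate early response that binds GC-rich sites.

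The starts of Litaf and Cdk5rap2 are shown because 5' end distances of both genes begin there and an EGR1 list is among the data. RefSeq (GRCm38.p6) gave a promoter window for 2 of the 3 genes, Litaf and Cdk5rap2. The 250 bases before each start are printed 5' to 3' on the gene's strand, the minus strand for both, at chr16:10993122-10993371 for Litaf and chr4:70410436-70410685 for Cdk5rap2. Capitals mark a match to GGGGGCG, read on either strand.
Litaf: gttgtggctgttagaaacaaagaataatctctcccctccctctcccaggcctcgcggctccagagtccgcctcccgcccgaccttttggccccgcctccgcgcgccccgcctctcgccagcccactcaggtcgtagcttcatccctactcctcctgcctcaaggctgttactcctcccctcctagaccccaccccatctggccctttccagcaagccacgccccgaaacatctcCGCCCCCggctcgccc
Cdk5rap2: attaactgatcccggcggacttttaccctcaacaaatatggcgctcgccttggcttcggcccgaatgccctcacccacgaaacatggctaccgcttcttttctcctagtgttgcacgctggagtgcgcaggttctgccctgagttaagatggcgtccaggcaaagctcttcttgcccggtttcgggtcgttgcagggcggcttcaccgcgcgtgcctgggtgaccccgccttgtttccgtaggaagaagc

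A pair of 9-letter forms of the EGR site, GCGTGGGCG and GCGGGGGCG, were searched on both strands. Neither string was found in the windows of Litaf and Cdk5rap2, and they were present in 0.536% and 2.57% of all 32851 windows of this length. The 7-letter string GGGGGCG, which is contained in the second, matched once in Litaf on the opposite strand, starting 16 bases before the gene start, and not in Cdk5rap2. It was present in 14.8% of windows. No list has a peak at either window: the EGR1 peak of Litaf lay 17801 bp away and that of Cdk5rap2 32087 bp away. Peaks at promoter windows were rare throughout, so this absence does not set the 2 genes apart. In the EGR1 list, 16 peaks among 847 overlapped any of the 32851 windows. The WT H3K27ac list had 15 such peaks among 857, while KO H3K27ac had 13 among 844. The string matches describe the letters only, and the bases under the peaks themselves were not analysed here.

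The Litaf peak lay close to the middle of its gene. Litaf (gene ID 56722) spans 10959273 to 10993121 on chromosome 16 of mm10, a length of 33849 bp, on the minus strand. Its peak covered 10975002 to 10975323 for WT H3K27ac, 10975004 to 10975310 for KO H3K27ac and 10975000 to 10975320 for EGR1. The WT H3K27ac centre at 10975165 was 17956 bp from the 5' end and 15892 bp from the 3' end, or 53.0% of the way along the gene. In KO H3K27ac and in EGR1 the centre lay 17962 bp and 17958 bp from the 5' end.

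The Ank1 peak lay in the 3' part of its gene. Ank1 (gene ID 11733) spans 22974836 to 23150501 on chromosome 8, a length of 175666 bp. Its peak covered 23095450 to 23095789 for WT H3K27ac, 23095449 to 23095787 for KO H3K27ac and 23095449 to 23095789 for EGR1. The centres lay 120773, 120765 and 120771 bp from the 5' end in the same order, which is 68.8%, 68.7% and 68.8% of the gene. The 3' end was 54892 bp from the WT H3K27ac centre. Inside the same gene, toward its 3' end, RefSeq places the microRNA gene Mir486, 46765 bp beyond the WT H3K27ac peak. The long non-coding RNA gene Gm15816 lies on the same side, 42999 bp from that peak. Another such gene, Gm51563, lies inside Ank1 toward its 5' end, 58372 bp from the peak.

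The Cdk5rap2 peak was the nearest of the 3 to its gene's 5' end in relative terms. Cdk5rap2 (gene ID 214444) spans 70216855 to 70410435 on chromosome 4, a length of 193581 bp, on the minus strand. Its peak covered 70378029 to 70378351 for WT H3K27ac, 70378035 to 70378343 for KO H3K27ac and 70378029 to 70378348 for EGR1. Centres lay 32247, 32248 and 32248 bp from the 5' end, or 16.7% of the gene in each list, and 161333 bp from the 3' end in WT H3K27ac. In absolute terms the Litaf peak was nearer to its 5' end than the Cdk5rap2 peak. No other RefSeq gene overlapped any of the 9 peaks. Exons and introns were not analysed here.

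**Figure D1:**
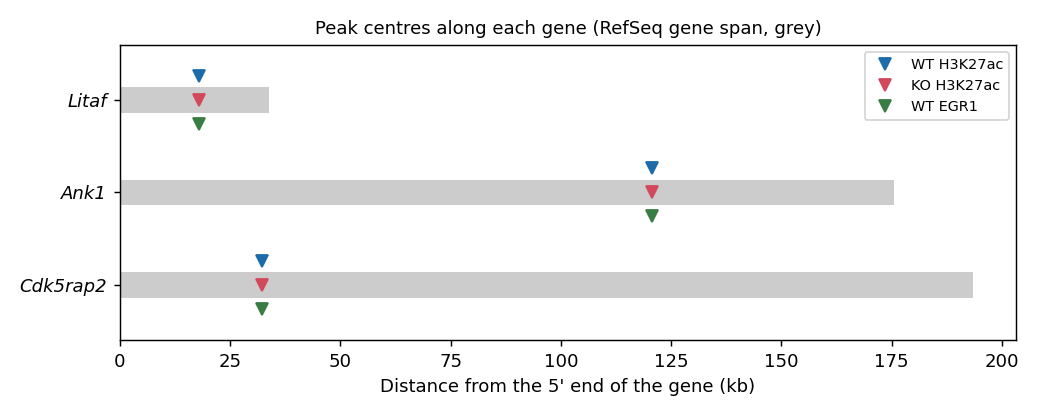
Peak centres of WT H3K27ac, KO H3K27ac and WT EGR1 (triangles) along the RefSeq span of each gene (grey bars), in kb from the 5' end. At this scale the 3 lists give the same position in each gene, 53.0% along Litaf, 68.8% along Ank1 and 16.7% along Cdk5rap2 in WT H3K27ac.

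The strand of Ank1 was read from the lists. In WT H3K27ac, all 56 neighbours in the 5' column at distance 0 whose strand RefSeq's windows give were on the plus strand, and all 98 in the 3' column were on the minus strand. The KO H3K27ac list gave 57 and 97 and the EGR1 list 57 and 97, with no exception in either. Litaf and Cdk5rap2 stand in the 3' column and are on the minus strand. Ank1 stands in the 5' column in every list and was therefore taken as a plus-strand gene, which sets the end its distances are measured from.

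A position far from a gene's start was common among genes with 1 peak. Exactly 1 peak in each list was found for 155 genes, and for 94 of them strand and coordinates could be had. The WT H3K27ac centre was within 2 kb of the 5' end in 9 of the 94, or 9.57%, and the median absolute distance was 28361 bp. In 7 of the 94 the centre lay before the 5' end by RefSeq coordinates. Litaf was below that median, and Ank1 and Cdk5rap2 were above it. Ank1 is not among the 94, since its strand was read from the lists.

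The peak shape score is the authors' own value, and it is used here to rank peaks within a list only. Ank1 scored 25.07 for WT H3K27ac, 23.16 for KO H3K27ac and 24.44 in EGR1, and ranked 11, 13 and 12. Litaf scored 21.43, 20.45 and 21.18 in the same order and ranked 18, 19 and 18. Cdk5rap2 scored 19.85, 20.55 and 19.53 and ranked 21, 18 and 23. Ank1 was the highest of the 3 in every list. Litaf stood above Cdk5rap2 in both WT lists, and Cdk5rap2 stood directly above Litaf in KO H3K27ac, with a gap in score of 0.10. All 9 peaks were among the top 2.72% of their lists.

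**Figure D2:**
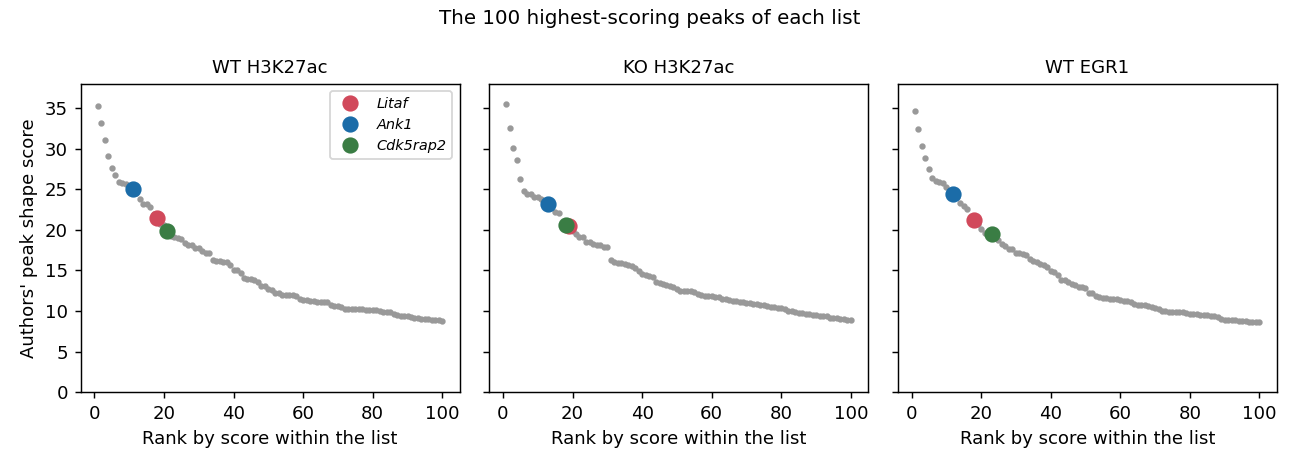
The authors' peak shape score against rank for the 100 highest-scoring peaks of each list (grey), with Litaf, Ank1 and Cdk5rap2 coloured. The 3 genes rank between 11 and 23 in all lists, and in KO H3K27ac the points of Cdk5rap2 (rank 18) and Litaf (rank 19) lie on each other.

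Peaks next to them in rank were mostly outside genes, as were most peaks of each whole list. In WT H3K27ac, Ank1 came after a peak 16377 bp from Gm20039 (score 25.25) and before one 23025 bp from Gm23941 (24.58). Litaf came after a peak inside 2210408I21Rik (21.91) and before one 11053 bp from Gm14496 (20.68). Cdk5rap2 came after the peak inside Spag17 (20.55), a gene of the motile cilium, and before one 10991 bp from Gm15068 (19.21). In EGR1 the peaks just above Ank1, Litaf and Cdk5rap2 were those near Gm23941 (24.79), in 2210408I21Rik (21.61) and near Tcstv3 (19.58), and those just below were near Gm38194 (24.10), near Gm14496 (20.72) and in Gm10800 (18.98). In KO H3K27ac, Ank1 stood between peaks near Gm38194 (23.60) and Gm26500 (23.08), Litaf stood above a peak in Gm10800 (19.81), and Cdk5rap2 stood below one near Mrgprd (20.65).

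Rank differences of the 3 genes between lists lay within the range seen over strong peaks, a set that includes these 3 genes. From WT to KO H3K27ac the ranks changed by 1 for Litaf, 2 for Ank1 and 3 for Cdk5rap2, against a median of 2 and a maximum of 6 over the 48 matched peaks that rank 50 or better in WT. Between WT H3K27ac and EGR1 they changed by 0, 1 and 2, against a median of 0.5 and a maximum of 3. From KO H3K27ac to EGR1 they changed by 1 for Litaf, 1 for Ank1 and 5 for Cdk5rap2. The median there was 2 and the maximum 20, over the 48 matched peaks that rank 50 or better in KO. Matched here means that a peak overlaps exactly 1 partner in each direction.

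Of the 25 highest-scoring peaks, 8 in each list lay inside a gene by the authors' distances, and 3 of those 8 were the peaks of Ank1, Litaf and Cdk5rap2. Over whole lists the share of peaks inside a gene was 41.4% for WT H3K27ac, 42.2% for KO H3K27ac and 41.9% in EGR1. The others among the 8 were in AC160116.1, Gm10801, 2210408I21Rik, Spag17 and Gm10800. Among genes with 1 peak per list, 12 of 155 scored 10 or more in every list (7.74%), and 10 of the 12 are protein-coding in RefSeq. By WT H3K27ac score the first 10 were AC160116.1 (33.17), Ank1, Litaf, Spag17, Cdk5rap2, Gm13822 (18.13), Mdga2 (16.19), Zc3h7a (16.15), Cmss1 (15.69) and Mamdc2 (13.96). The median over the 155 was 3.21.

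Genes with 1 peak per list were also ordered by how far their rank was from that of each gene, taking the largest difference over the 3 lists. Nearest to Litaf were Cdk5rap2 (5 ranks), Spag17 (6) and Ank1 (7). Nearest to Cdk5rap2 were Litaf (5), Spag17 (7) and Ank1 (11). Nearest to Ank1 were Litaf (7), AC160116.1 (11) and Cdk5rap2 (11). Spag17 was the only other single-peak gene to come within 10 ranks of any of them, with ranks of 20 for WT H3K27ac, 25 for KO H3K27ac and 20 for EGR1. Litaf, Ank1 and Cdk5rap2 were selected on their scores and on a single peak, so their nearness to each other in rank restates that selection.

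The same regions were listed at all 3 genes in WT cells, in KO cells and for EGR1. All 3 WT H3K27ac peaks overlapped their KO counterpart, beside 86.8% of all WT H3K27ac peaks (95% Wilson interval 84.4 to 88.9, counting error over peaks only), and the share of all KO peaks that overlapped a WT peak was 88.3%. All 3 EGR1 peaks overlapped a WT H3K27ac peak, beside 97.0% of all EGR1 peaks (95.7 to 98.0), and a KO H3K27ac peak, beside 87.7% (85.3 to 89.8). In the other direction, 95.9% of all WT H3K27ac peaks and 88.2% of all KO H3K27ac peaks overlapped an EGR1 peak. The lists share most of their peaks, and an overlap at these genes does not set them apart. The genes were also selected on strong peaks in these lists, which made an overlap likely beforehand. Among peaks scoring 3 or more in both lists, 92.9% of WT H3K27ac peaks overlapped a KO peak. The shared stretch was large: the Litaf peaks of WT and KO H3K27ac had 307 bp in common, 95.3% of the WT peak and 100% of the KO peak. For Ank1 it was 338 bp (99.4% and 99.7%) and for Cdk5rap2 309 bp (95.7% and 100%).

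Centres moved by at most 8 bp between lists. From WT to KO H3K27ac the centre moved by -6 bp in Litaf, -8 bp in Ank1 and -1 bp in Cdk5rap2, where a negative value is toward lower coordinates. The median absolute shift was 7 bp over all 739 matched peaks and 4 bp over the 48 that rank 50 or better. By the midpoint of the region in place of the authors' centre, the Ank1 shift was -1.5 bp. A shift as small as the 8 bp of Ank1 or smaller was found in 53.9% of the 739 and 85.4% of the 48. From WT H3K27ac to EGR1 the centre moved by -2 bp in Litaf, -2 bp in Ank1 and -1 bp in Cdk5rap2, with a median absolute shift of 1 bp over 814 matched peaks and 2 bp over the strongest 48. From KO H3K27ac to EGR1 it moved by 4, 6 and 0 bp (1.0 bp in Ank1 by midpoints), with medians of 7 bp over 738 peaks and 3 bp over 48. The EGR1 centre was closer to the WT H3K27ac centre than to the KO centre in Litaf and Ank1, and in Cdk5rap2 it coincided with the KO centre.

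**Figure D3:**
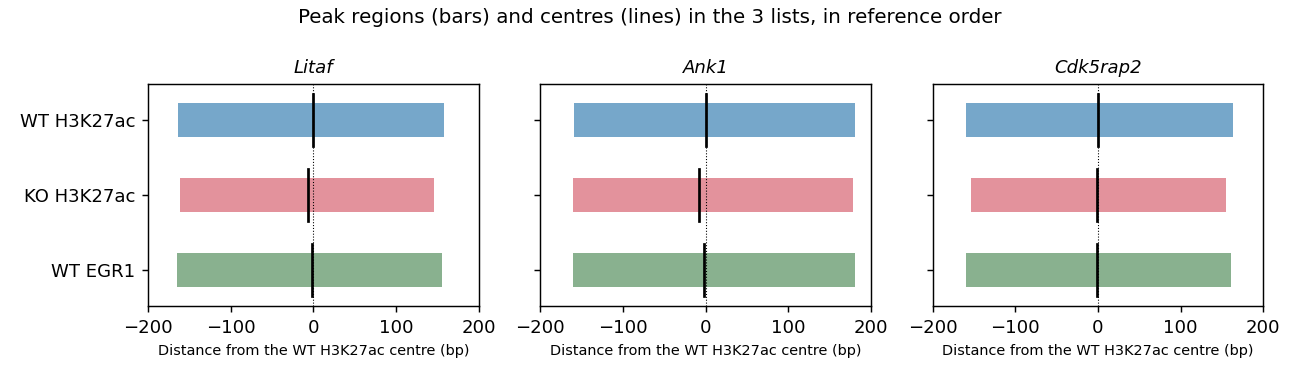
Peak regions (bars) and centres (black lines) in the 3 lists, in bp from the WT H3K27ac centre of the same gene. The KO H3K27ac bar is shorter than the WT bar by 15 bp in Litaf and 14 bp in Cdk5rap2, and by 1 bp in Ank1.

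Lengths split the 3 genes. The Litaf peak was 322 bp long for WT H3K27ac, 307 bp for KO H3K27ac and 321 bp for EGR1. The Cdk5rap2 peak was 323, 309 and 320 bp long in the same order. Both were near the median lengths of their lists, 324, 310 and 323 bp. The Ank1 peak was 340, 339 and 341 bp long. Of all peaks, weak ones included, 25.9% for WT, 16.7% for KO and 26.1% for EGR1 were as long or longer. Other genes with a strong single peak also had longer ones, up to 476, 370 and 474 bp in the same order.

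From WT to KO H3K27ac the length changed by -15 bp in Litaf, -14 bp in Cdk5rap2 and -1 bp in Ank1. Over all matched peaks the median change was -12 bp, and 80.8% were shorter in KO. Among the 48 matched peaks that rank 50 or better the median was -14 bp, and 44 were shorter, or 91.7%. Litaf and Cdk5rap2 were thus at the typical change of strong peaks. In Litaf the lower edge moved by 2 bp and the upper edge by -13 bp, and in Cdk5rap2 the edges moved by 6 bp and -8 bp. Ank1's edges moved by -1 bp and -2 bp, so its region stayed the same within 2 bp at either end while its centre moved by -8 bp. The centre lay 46.9% of the way through the Ank1 region for WT H3K27ac, 45.0% for KO H3K27ac and 46.5% in EGR1. In Litaf it lay at 50.8%, 50.7% and 50.9%, and in Cdk5rap2 at 49.4%, 49.4% and 49.5%.

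**Figure D4:**
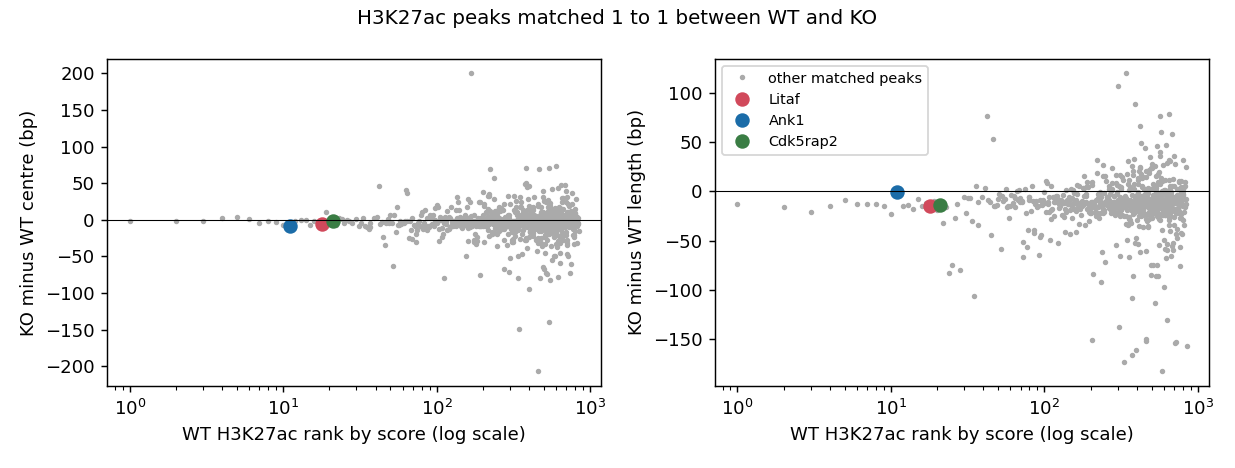
KO minus WT centre (left) and length (right), in bp, against the WT H3K27ac rank (log scale) for 739 peaks matched between WT and KO, with the 3 genes coloured. Litaf (-15 bp) and Cdk5rap2 (-14 bp) lie in the band of strong peaks that are shorter in KO, and Ank1 (-1 bp) lies near 0.

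The other 9 genes with 1 peak scoring 10 or more in every list gave the range for comparison. Their KO minus WT centre shifts ran from -12 to 7 bp with a median of -2 bp, and their length changes from -106 to 5 bp with a median of -11 bp. The values of Litaf, Ank1 and Cdk5rap2 lay inside both ranges. Mdga2, which encodes a neuronal adhesion protein, had the change of -106 bp, and Zc3h7a, which encodes a zinc finger protein, was the gene with a longer KO peak (332 bp against 327 bp in WT). Peak lengths of these 9 ran from 323 to 476 bp for WT H3K27ac, with a median of 327 bp. For KO H3K27ac they ran from 308 to 370 bp (median 332 bp), and for EGR1 from 320 to 474 bp (median 325 bp). Ank1 was above each median but inside each range, so its length did not set it apart from these peaks. Cdk5rap2 was inside each range too. Litaf, at 322 and 307 bp, lay just below the ranges for WT and KO H3K27ac. Rank changes of these 9 from WT to KO H3K27ac ran from -2 to 8, where a positive number is a lower place in KO. Cdk5rap2, at -3, lay just outside this range and moved up in KO. A change of 3 was within the maximum of 6 over the 48 matched peaks that rank 50 or better in WT.

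The surroundings of the 3 peaks differed. Around Ank1 the next WT H3K27ac peak was 2544806 bp away and scored 1.65. In KO H3K27ac and EGR1 the next peak lay 2715736 bp and 2573486 bp away, with scores of 1.65 and 1.71. The next peak was a different region in each list, starting at 20550275, 20379388 and 20521647 for WT H3K27ac, KO H3K27ac and EGR1. A score of 1.65 was the lowest in every list, so these gaps depend on which weak peaks were listed. Cdk5rap2 had its next peak 1245553 bp away in WT H3K27ac (score 2.67), 1245549 bp in KO H3K27ac (2.79) and 1245561 bp in EGR1 (2.67). These neighbours were near the bottom of the lists for Ank1 and near their middle for Cdk5rap2, at ranks 852 and 465 of 857 in WT H3K27ac.

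Litaf had a strong neighbour. The next peak lay 168638 bp away in WT H3K27ac, at 11143962 to 11144288 on chromosome 16 inside Zc3h7a, and it is itself the single peak of that gene. Its scores were 16.15 for WT H3K27ac, 14.95 for KO H3K27ac and 16.37 in EGR1, and it ranked 36, 39 and 34. A gap of over 1 Mb to the next peak was found for 34.1% of WT H3K27ac peaks and for 10 of the 25 with the highest scores, so the isolation of Ank1 and Cdk5rap2 was shared by many peaks. The 9 other strong single peaks had a median gap of 4071132 bp. None of the 3 peaks lay near an end of its chromosome's annotated span, with at least 7972188 bp to the nearer end.

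**Figure D5:**
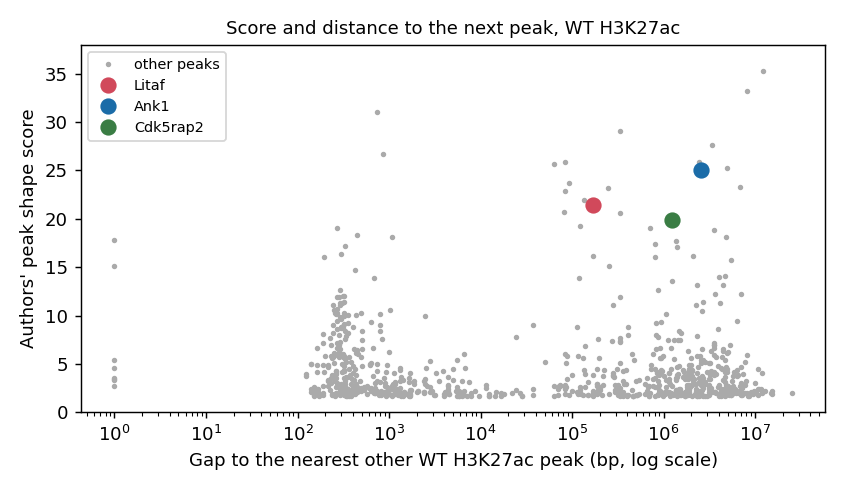
The authors' score against the gap to the nearest other peak of the WT H3K27ac list (log scale, adjoining peaks drawn at 1 bp), with the 3 genes coloured. Ank1 (2544806 bp) and Cdk5rap2 (1245553 bp) lie to the right of Litaf (168638 bp), and peaks at each of these distances include many with scores under 5.

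The other neighbours that the authors name were predicted genes. For Ank1 the 3' neighbour was Gm44365, 6182 bp away in WT H3K27ac, a distance that places it within the RefSeq span of Ank1. For Litaf the 5' neighbour was Gm21859 at 60204 bp, and for Cdk5rap2 it was Gm11225 at 329823 bp.

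No other gene of the 3 gene lists built around Litaf, Ank1 and Cdk5rap2 had a peak within 2 kb. Of 20 genes around LITAF, LPS sensing and endosomal sorting, Litaf was the only one with a peak inside or within 2 kb in any list. The others include its paralog Cdip1, the LPS receptor genes Tlr4, Cd14 and Ly96, the cytokine gene Tnf, and Nedd4, Itch and Tsg101 of the ubiquitin and sorting machinery. Wwox, an oxidoreductase gene, had a peak 2498 bp away in WT H3K27ac with a score of 1.85, against 2.06 for KO H3K27ac and 1.88 for EGR1. Of 19 genes of the ankyrin and spectrin skeleton, Ank1 alone had a peak, and the paralogs Ank2 and Ank3, the spectrin gene Sptb and the anion exchanger gene Slc4a1 had none within 2 kb. Of 20 centrosome and microcephaly genes, Cdk5rap2 alone had a peak, and its paralog Pde4dip, Pcnt, Akap9, Aspm and Cenpj had none. Each gene list was built around its member, so the count of 1 restates how it was made. The remaining 0 of 19 around Litaf, 0 of 18 around Ank1 and 0 of 19 around Cdk5rap2 stand beside the 0.679% of all protein-coding genes with a WT H3K27ac peak given above. A gene without a listed peak is not shown to lack signal.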

How the data were processed

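Of the 5 samples, 3 had called peaks: WT H3K27ac, KO H3K27ac and WT EGR1. The authors deposited 1 peak list for each, on mm10 as the submitters' processing notes state. The handling of reads, the peak caller, its filters and any use of input were not given in the sources used here. The deposited columns, per the file headers, are the region with its centre and length, the score that the authors gave each peak for its shape, its p-value (at most 0.05 among the deposited values), and the gene on either side with its distance. Scores were ranked within a list, with ties given the better rank. Positions count from 1. Peaks overlapped when they shared 1 bp or more. Gene spans came from RefSeq GRCm38.p6, the same assembly as mm10, and 49628 of 49993 genes with coordinates, those on placed chromosomes, were used. All 3 genes matched by symbol. Promoter windows came from RefSeq too, and their strand was checked on 1685 overlapping windows of opposite strand, all of which were reverse complements.

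Groups came from the sample titles. No test was made, since each group has 1 library. The genes, gene lists and alternatives were chosen with earlier results of these data known. Genes named are Litaf, Ank1 and Cdk5rap2, their neighbours in rank and position, the 3 single-peak genes nearest each in rank, up to 10 single-peak genes with scores of 10 or more, and list members with a peak. A planned member of the gene lists is not reported here. Matching and ranking were tested on simulated peaks. Tables were handled in pandas 2.3.3 and numpy 2.4.6 under Python 3.11.15, intervals came from scipy 1.17.1 and plots from matplotlib 3.10.9.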

Additional observations from a re-analysis of the deposited data

How the results depend on the processing

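No paired analysis was possible because each group has 1 library, and leaving out a replicate was not possible for the same reason. Each gene kept 1 peak in each list by RefSeq coordinates, within 50 kb and at a score of 3 or more. Position within the gene moved by less than a peak length when the midpoint of the region replaced the authors' centre. Merging loci within 10 kb left every rank within 1.5 times its value. Ranks depended on which peaks were ranked. Among peaks inside genes, Ank1 ranked 3 in all lists, Litaf ranked 5, 6 and 5 for WT H3K27ac, KO H3K27ac and EGR1, and Cdk5rap2 ranked 7, 5 and 7. Among autosomal peaks over 500 kb from a span end, Ank1 ranked 6 in all lists, Litaf 9, 10 and 9, and Cdk5rap2 11, 9 and 11. These sets hold fewer peaks by construction. By midpoints the Ank1 shift from WT H3K27ac to EGR1 was -0.5 bp in place of -2 bp, that from WT to KO H3K27ac was -1.5 bp in place of -8 bp, and that from KO H3K27ac to EGR1 was 1.0 bp in place of 6 bp.

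All 3 genes kept their overlaps at 50% of both peaks and at scores of 3 or more. Among peaks scoring 3 or more in both lists, the share of all peaks that overlapped was 92.9% for WT H3K27ac on KO, 93.4% for KO on WT, 97.6% for WT H3K27ac on EGR1, 98.5% for EGR1 on WT H3K27ac, 92.9% for KO H3K27ac on EGR1 and 93.4% for EGR1 on KO H3K27ac. Genes with a single strong peak numbered 39 at a score of 5 and 7 at a score of 15, in place of 12 at a score of 10, and 17 at a score of 10 when RefSeq coordinates decided which gene holds a peak. Within 50 kb, 2 of 20 genes of the LITAF list (Litaf and Wwox) and 2 of 15 dendritic and myeloid markers (Csf2ra and Batf3) had a peak in each list. The depth of the libraries is unknown, so the precision of centres and edges could not be estimated.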
